A study of Mus musculus with 24 samples.

Results

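The subject is a set of 9 genes of the germinal center program, Bcl6, Mef2b, Mef2c, S1pr2, Fas, Gcet2, Gm600, Mybl1 and Basp1, followed by symbol through 12 RNA-seq libraries of mouse splenic B cells. All 9 had a row among the 23234 genes of each expression table and were looked up by symbol. They were chosen with earlier results of these data known, so their p-values are not those of an unselected set. The libraries fall into 4 groups of 3: CD93-negative B cells of control mice (CTL), CD93-negative B cells of Tet2/Tet3-deficient mice (Tet DKO), and CD93-positive B cells of both genotypes. All were freshly isolated from the spleen of C57BL/6 mice, with no treatment named, and the deficient CD93-positive libraries are titled Tet KO; DKO stands for both titles below. TET2 and TET3 are enzymes that oxidise methylated cytosine in DNA, and CD93 is a surface protein of immature and transitional B cells in the spleen. The labels name neither the deleted exons, nor the Cre line, nor the alleles the controls carry, nor the animals' age, and they do not say whether the libraries of a group came from separate mice. The p-values below therefore measure only the spread between these libraries, which may be technical. A further 12 samples, CD93-negative cells divided by their CD23 and CD21, are not used here.

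The germinal center is the structure in which activated B cells divide, mutate their antibody genes and are selected for affinity. BCL6, a zinc finger repressor of transcription, keeps B cells in that state, and MEF2B and MEF2C, DNA-binding factors of the MADS box family, act in the same cells, MEF2B as an activator of the Bcl6 gene. The spleen of an unimmunised mouse holds few germinal center B cells.

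Levels are FPKM, fragments normalised to transcript length and to the mapped fragments of a library, so that genes can be compared per length, but the tables hold no read counts and the depth is unknown. Changes are differences of mean log2(FPKM + 1), DKO minus CTL, which understate the change of genes near 0, and a change is called where limma's adjusted p is at or under 0.05. The summed FPKM was 342368 to 394709 in the CTL and 424032 to 463987 in the DKO libraries of CD93-negative cells. The upper quartile over the tested genes was 18.7 to 24.3 FPKM in these CTL and 25.1 to 26.1 in these DKO libraries. In the CD93-positive libraries the summed FPKM was 523898 to 597968, except for DKO 3 at 309359. DKO 3 also had an upper quartile of 15.4 FPKM over the tested genes against 25.8 to 30.0 in the other 5, so changes are given on the authors' scale and once more with the upper quartiles of a table's libraries made equal. The rescaling moved the median change of all tested genes from 0.11 to -0.08 in CD93-negative cells and from -0.22 to -0.01 in CD93-positive cells. The deposited value of a gene can include exons outside a deletion, so Tet2, at 6.36 to 8.79 FPKM in CTL and 8.15 to 9.94 in DKO CD93-negative cells, checks no label. Cd93 stood at 3.32 to 4.65 FPKM in the CD93-negative libraries and at 28.0 to 59.9 in the CD93-positive ones.

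CD93-negative DKO cells held several-fold more RNA of Mef2b, Gm600, Basp1, Mybl1, Fas and S1pr2 than CTL cells, while the transcripts of Bcl6 and Mef2c, the most abundant of the 9, were not higher. Mef2b rose from 3.05 ± 0.340 to 16.9 ± 1.03 FPKM (mean ± SD, n = 3 and 3), and Gm600 from 0.464 ± 0.0751 to 6.18 ± 0.988. Gcet2 stayed under 1 FPKM in every library and was not tested. Among all 10960 genes tested in these cells, 18.7% were called higher and 2.79% lower on the authors' scale, and 17.1% and 23.8% after rescaling. Of the 9 genes, 6 were called higher on either scale, and their DKO libraries all lay above the CTL libraries. The same held for 31.5% of tested genes, and for 21.4% after rescaling. However, S1pr2, Gm600 and Mybl1 passed the expression filter only through their DKO libraries, so a count over the tested genes is no support for a set effect. In bulk RNA, more cells of a type and more RNA per cell cannot be told apart.

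**Figure D1:**
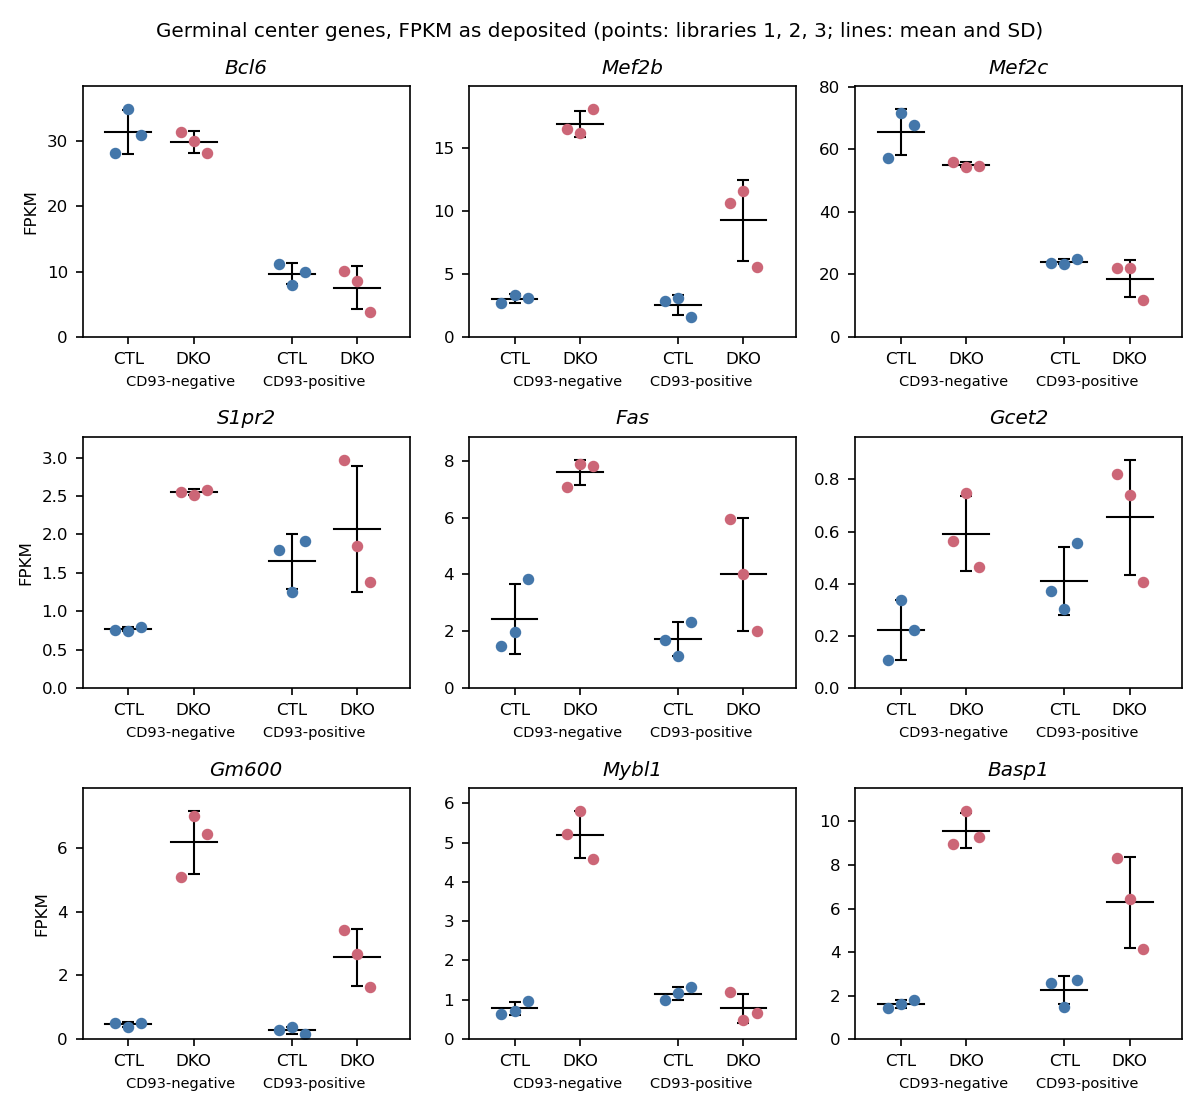
FPKM as deposited (y axes) for the 9 germinal center genes in CTL and DKO libraries of CD93-negative and CD93-positive B cells; points are libraries, lines the mean and SD of 3. Mef2b sits at 2.68 to 3.35 FPKM in CTL and 16.1 to 18.1 in DKO CD93-negative cells, and the CD93-positive library DKO 3 is the lowest of its group for 8 of the 9 genes.

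Bcl6 itself did not rise in CD93-negative cells. It measured 28.2, 34.9 and 30.9 FPKM in the CTL libraries and 31.4, 30.0 and 28.1 in the DKO libraries. These ranges overlapped, and the change of -0.07 (SE 0.13) had an adjusted p of 0.780. After upper quartile rescaling the CTL libraries stood at 35.6, 34.0 and 31.7 and the DKO libraries at 29.6, 27.9 and 25.4. On that scale all 3 DKO libraries were lower, as for 33.3% of tested genes, and the fall of -0.28 was called (adjusted p = 0.0186). That call depends on the scale, and the rescaled call was lost without DKO 3 (-0.22, adjusted p = 0.0521).

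Mef2c, which takes part in the proliferation of B cells after receptor signalling, followed a similar course. Its FPKM was 57.2, 71.6 and 67.6 in CTL and 56.0, 54.3 and 54.8 in DKO CD93-negative cells. Every DKO library lay below every CTL library, as for 7.43% of tested genes, yet the change of -0.24 did not pass (adjusted p = 0.221). It passed on the authors' scale without CTL 1 (-0.33, adjusted p = 0.00873). Rescaling tightened both groups, to 69.5 to 72.2 in CTL and 49.5 to 52.7 in DKO, and the fall of -0.46 was then called (adjusted p = 3.48e-04).

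Mef2b moved the other way. Its CTL libraries measured 2.68, 3.35 and 3.11 FPKM and its DKO libraries 16.5, 16.1 and 18.1. The groups lay far apart, with a mean 5.54 times the control level and a change of 2.15 (SE 0.13, adjusted p = 4.55e-07), or 1.96 after rescaling. Of the summed FPKM of the 4 MEF2 genes (Mef2a to Mef2d), Mef2b made up 2.07% to 2.18% in CTL and 10.7% to 12.2% in DKO, and the ratio of Mef2c to Mef2b went from 21.3 to 21.7 down to 3.03 to 3.40. The share and the ratio are taken within a library, so no rescaling of libraries alters them. RefSeq lists a transcript that reads through from the adjacent gene 2310045N01Rik into Mef2b, and the tables cannot separate such fragments. That neighbour measured 42.4, 44.5 and 40.8 FPKM in CTL and 57.9, 48.0 and 53.5 in DKO, a change of 0.31 that did not pass (adjusted p = 0.105).

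Mybl1 encodes A-MYB, a MYB family activator made by dividing germinal center cells. It lay at 0.649, 0.708 and 0.977 FPKM in CTL and at 5.23, 5.79 and 4.58 in DKO CD93-negative cells. All CTL libraries were under 1 FPKM and all DKO libraries above 4, a change of 1.80 (SE 0.15, adjusted p = 5.83e-06). Its relative Mybl2, which encodes the cell cycle factor B-MYB, also rose, from 1.25, 1.91 and 2.42 to 8.28, 9.14 and 9.04 FPKM (change 1.80, adjusted p = 1.19e-05). Myb, the third of the family, measured 9.09, 14.3 and 12.8 against 16.3, 14.5 and 16.8 FPKM and did not pass (adjusted p = 0.113).

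Both surface receptors rose in CD93-negative cells. S1PR2 is the sphingosine-1-phosphate receptor that holds B cells inside the germinal center. S1pr2 was at 0.759, 0.740 and 0.793 FPKM in CTL and 2.56, 2.51 and 2.58 in DKO libraries, a tight pair of groups with a mean 3.33 times the control level (change 1.01, SE 0.14, adjusted p = 3.46e-04). FAS is the death receptor found on nearly all germinal center B cells. Fas was at 1.49, 1.97 and 3.82 FPKM in CTL, the third of them well above the other two, and at 7.08, 7.88 and 7.81 in DKO. The lowest DKO library was still above the highest CTL library, with a change of 1.38 (SE 0.21, adjusted p = 5.75e-04).

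Gm600, also called Nuggc, encodes a nuclear GTPase of germinal center B cells that is known to limit DNA damage in them. It measured 0.503, 0.377 and 0.511 FPKM in CTL and 5.08, 7.01 and 6.44 in DKO CD93-negative cells. That is a mean 13.3 times the control level, from a base under 1 FPKM, and a change of 2.29 (SE 0.15, adjusted p = 1.05e-06). Basp1, which encodes a lipid-anchored protein of the inner cell membrane, measured 1.44, 1.62 and 1.78 FPKM in CTL and 8.95, 10.5 and 9.31 in DKO. The groups did not overlap (change 2.02, SE 0.14, adjusted p = 1.05e-06). Gcet2, also called Gcsam, encodes an adaptor that dampens movement of germinal center B cells. It measured 0.107, 0.336 and 0.223 FPKM in CTL and 0.564, 0.747 and 0.465 in DKO. The DKO libraries were all higher, but in an exact two-sided permutation test p was 0.1, the smallest that 3 against 3 libraries allow.

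The order of the levels also differed between genotypes in CD93-negative cells. In CTL it ran Mef2c, Bcl6, Mef2b, Fas, Basp1, Mybl1, S1pr2, Gm600 and Gcet2, where neighbours from Mef2b to Basp1 overlapped between libraries, as did Mybl1 and S1pr2. In DKO Mef2c and Bcl6 still led, at 55.0 ± 0.848 and 29.8 ± 1.65 FPKM, followed by Mef2b, Basp1, Fas, Gm600, Mybl1, S1pr2 and Gcet2. Only Gm600 and Mybl1 overlapped there among neighbours.

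CD93-positive DKO cells showed a narrower change: Mef2b, Gm600 and Basp1 were called higher, and Fas after rescaling as well. Bcl6, Mef2c, S1pr2 and Mybl1 did not pass on either scale. The background in these cells was 1.67% of 11250 tested genes called higher and 1.54% lower on the authors' scale, and 11.4% and 9.34% after rescaling. Gm600 passed the filter only through its DKO libraries. On the authors' scale limma gave every gene the spread shared by genes of like level, with no weight on the gene's own, so the rescaled values are given as well. The groups were also unlike in sex, as read from Xist and Ddx3y: CTL 1 and 2 were male, CTL 3 and all DKO libraries female. With sex as a covariate the change is therefore the DKO mean against CTL 3 alone, so only its size is given below.

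Mef2b measured 2.89, 3.10 and 1.61 FPKM in CTL and 10.6, 11.5 and 5.54 in DKO CD93-positive cells. The groups did not overlap, as for 2.94% of genes with DKO higher, although DKO 3 lay below its partners. After rescaling the values were 2.62, 3.09 and 1.38 against 9.18, 10.4 and 9.25. The change was 1.51 (SE 0.32, adjusted p = 1.56e-04) on the authors' scale and 1.69 (adjusted p = 0.00398) rescaled. Within the MEF2 family, Mef2b made up 1.07% to 2.46% of the FPKM in CTL and 8.92% to 10.3% in DKO. With sex as a covariate, against CTL 3 alone, the change was 1.91, and CTL 3 was the lowest of the CTL libraries. The call was lost without CTL 3 (change 1.30, adjusted p = 0.0626) and when no expression filter was applied (adjusted p = 0.282).

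Gm600 was at 0.296, 0.368 and 0.151 FPKM in CTL and 3.41, 2.67 and 1.63 in DKO CD93-positive cells. Every DKO library was above 1 FPKM and every CTL library under it, and the rescaled DKO values drew together, at 2.94, 2.40 and 2.72. The change was 1.46 (adjusted p = 1.91e-07), 1.56 rescaled (adjusted p = 0.00171), and 1.60 with sex as a covariate, against CTL 3 alone. Without a filter on low values the adjusted p was 0.0914.

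Basp1 measured 2.57, 1.50 and 2.70 FPKM in CTL and 8.31, 6.45 and 4.14 in DKO, again without overlap. The change of 1.14 (SE 0.30, adjusted p = 0.00734) was 1.33 after rescaling (adjusted p = 0.00347). This call was the least steady of the 3: it was lost under 8 of 17 alternatives. With sex as a covariate, against CTL 3 alone, the change was 0.94 on the authors' scale and 1.20 after rescaling.

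Fas measured 1.70, 1.14 and 2.32 FPKM in CTL and 5.96, 4.02 and 2.01 in DKO CD93-positive cells, where DKO 3 fell inside the CTL range. The change of 0.82 did not pass (adjusted p = 0.0909). After rescaling, 5.15, 3.61 and 3.36 in DKO stood above 1.54, 1.14 and 1.99 in CTL, as in 20.9% of genes, and the change of 0.98 passed (adjusted p = 0.0172). It also passed on the authors' scale without DKO 3 (1.14, adjusted p = 0.0305). With rescaling and the sex covariate together, against CTL 3 alone, the change was 0.74.

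S1pr2 gave 1.80, 1.24 and 1.92 FPKM in CTL and 2.97, 1.85 and 1.38 in DKO CD93-positive cells, with overlapping groups and a change of 0.19 (adjusted p = 0.816). After rescaling its CTL libraries stood at 1.63, 1.24 and 1.64 and its DKO libraries at 2.56, 1.66 and 2.31. All DKO libraries were then higher, as for 20.9% of tested genes, the lowest of them only just. The change of 0.34 did not pass (adjusted p = 0.175). Its control level of 1.65 ± 0.358 FPKM compares with 0.764 ± 0.0271 in the separately scaled CD93-negative table. Mybl1 gave 0.982, 1.17 and 1.31 in CTL and 1.20, 0.488 and 0.667 in DKO. These overlapped on both scales, with a change of -0.29 (adjusted p = 0.668), or -0.16 rescaled (adjusted p = 0.573). Gcet2 gave 0.371, 0.304 and 0.558 FPKM in CTL and 0.819, 0.741 and 0.405 in DKO, an exact two-sided permutation p of 0.2. After rescaling its groups were apart, at 0.337, 0.303 and 0.477 in CTL and 0.707, 0.665 and 0.677 in DKO, as for 20.9% of tested genes.

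Bcl6 and Mef2c stood at lower FPKM in CD93-positive cells than in the separately scaled CD93-negative table. Bcl6 measured 11.2, 8.01 and 9.91 FPKM in CTL and 10.1, 8.61 and 3.84 in DKO, which overlapped (change -0.41, adjusted p = 0.684; rescaled -0.20, adjusted p = 0.340). Without DKO 3 the change on the authors' scale was -0.040. Mef2c measured 23.8, 23.4 and 25.0 in CTL and 22.1, 22.1 and 11.8 in DKO. All DKO libraries were below the CTL libraries, as for 19.0% of tested genes on this scale, and the change of -0.40 did not pass (adjusted p = 0.715). They were lower after rescaling too, as for 22.0% of genes, and the change of -0.17 did not pass (adjusted p = 0.121). Without DKO 3 the change on the authors' scale was -0.12. In the order of mean levels, Mef2b passed Bcl6 in DKO CD93-positive cells, at 9.23 ± 3.23 against 7.52 ± 3.28 FPKM, though the libraries of the 2 genes overlapped.

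**Figure D2:**
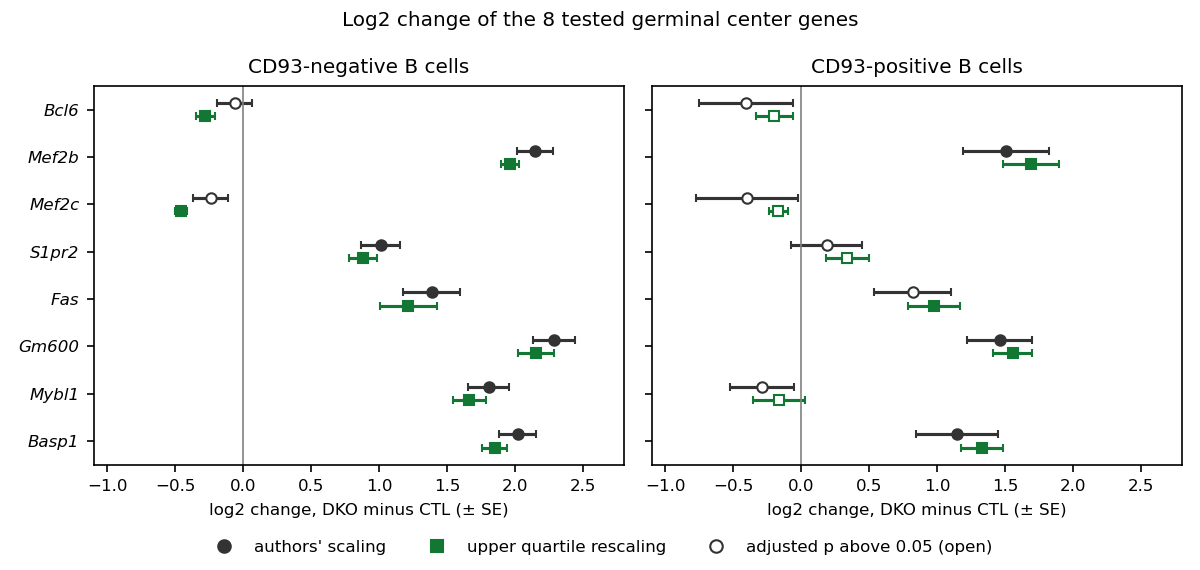
Change (x axis, log2(FPKM + 1), DKO minus CTL, with SE) of the 8 tested genes on the authors' scale (circles) and after upper quartile rescaling (squares); open symbols have an adjusted p above 0.05. Mef2b, Gm600 and Basp1 are filled in both panels, and Mybl1 stands at 1.80 in CD93-negative and -0.29 in CD93-positive cells.

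The tables were scaled separately, so the changes stand side by side and their differences were not tested. By Xist (0.0986 to 0.250 FPKM) and Ddx3y (23.0 to 30.7 FPKM), all CD93-negative libraries were male. The populations were thus also unlike in sex. S1pr2 and Mybl1 changed by 1.01 and 1.80 in CD93-negative cells and by 0.19 and -0.29 in CD93-positive cells. For Mef2b the pair of values was 2.15 and 1.51, for Gm600 2.29 and 1.46, for Basp1 2.02 and 1.14, and for Fas 1.38 and 0.82.

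**Figure D3:**
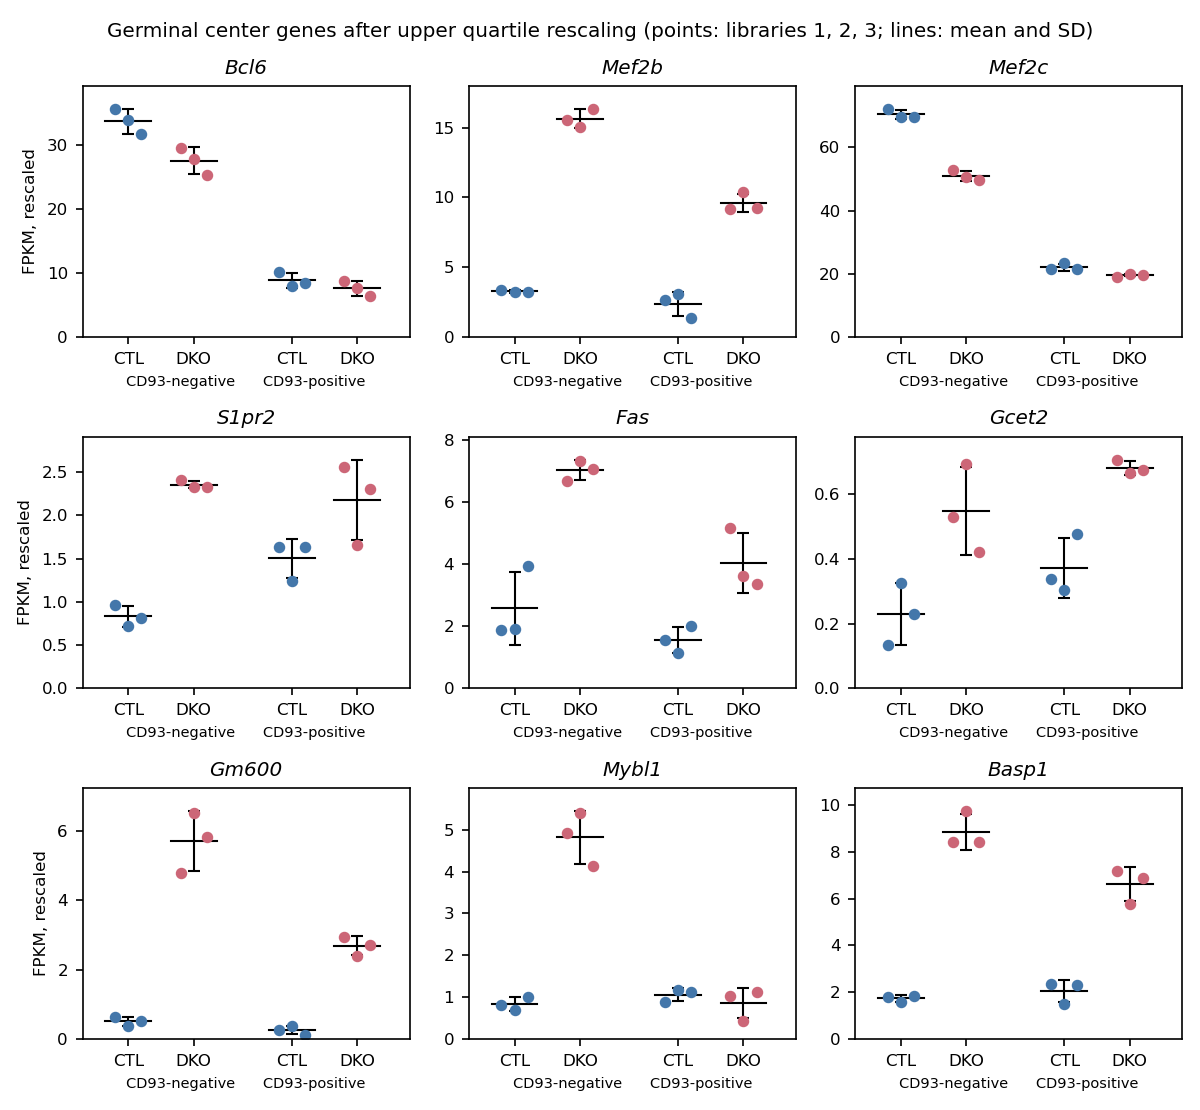
FPKM with the upper quartiles of a table's 6 libraries made equal (y axes), with points for libraries and lines for the mean and SD of 3. Library DKO 3 of the CD93-positive cells now lies near its partners, with Mef2b at 9.25 beside 9.18 and 10.4, and Bcl6 of CD93-negative cells no longer overlaps between CTL and DKO.

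TET enzymes act on methylated CG dinucleotides. The CG content of the promoters is therefore shown for the genes the results turn on, with Bcl6 as one that did not rise. RefSeq's promoter table (GRCm38.p6, a later build than the mm9 build of the submitters' processing notes) held 10 entries for 7 of the 9 genes and none for Mybl1 or Gm600. The 250 bases before the start of each gene follow, 5′ to 3′ in the direction of transcription, with every CG in capitals: Mef2b, chr8:70152511-70152760, plus strand; Fas, chr19:34290409-34290658, plus strand; Basp1, chr15:25413765-25414014, minus strand; and the first Bcl6 entry, chr16:23988853-23989102, minus strand.
Mef2b: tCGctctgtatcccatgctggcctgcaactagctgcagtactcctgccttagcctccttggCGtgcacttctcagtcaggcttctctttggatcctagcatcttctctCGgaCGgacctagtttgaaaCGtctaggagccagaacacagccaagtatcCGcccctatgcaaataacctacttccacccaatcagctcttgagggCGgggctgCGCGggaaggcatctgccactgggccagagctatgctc
Fas: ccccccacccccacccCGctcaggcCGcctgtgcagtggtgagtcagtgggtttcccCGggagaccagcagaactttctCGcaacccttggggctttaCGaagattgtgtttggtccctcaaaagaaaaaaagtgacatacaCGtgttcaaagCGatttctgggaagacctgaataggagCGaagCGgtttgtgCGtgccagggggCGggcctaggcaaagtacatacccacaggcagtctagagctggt
Basp1: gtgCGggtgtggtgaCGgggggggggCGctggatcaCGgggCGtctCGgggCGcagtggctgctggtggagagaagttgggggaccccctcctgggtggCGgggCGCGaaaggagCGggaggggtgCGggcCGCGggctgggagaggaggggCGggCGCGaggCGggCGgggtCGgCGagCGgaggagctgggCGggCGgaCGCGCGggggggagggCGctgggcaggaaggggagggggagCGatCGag
Bcl6: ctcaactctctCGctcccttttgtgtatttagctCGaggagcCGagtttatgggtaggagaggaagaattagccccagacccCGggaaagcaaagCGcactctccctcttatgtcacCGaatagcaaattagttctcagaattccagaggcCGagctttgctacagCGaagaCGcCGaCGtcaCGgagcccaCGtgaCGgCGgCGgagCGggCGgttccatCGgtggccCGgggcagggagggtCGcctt
The median of 32851 promoters in the table was 6 CG. Mef2b held 9, Fas 11, S1pr2 14, Bcl6 21 and 13 in its 2 entries and Basp1 30, a number reached by 5.94% of promoters, while the 3 Mef2c entries held 1, 6 and 4 and Gcet2 held 3. The entries of genes called higher in CD93-negative cells ranged from 9 to 30 CG. Those of Bcl6, which was not called higher, lay inside that range. Those of Mef2c, also not called higher, and of the untested Gcet2 lay below it. A link between CG number and change was not tested. For the entry of Mef2b and the second entries of Bcl6 and Mef2c, bases after the start matched no annotated transcript of the gene. Those starts are therefore less certain. Methylation was not measured in these libraries.

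Motifs were searched on both strands of the same windows, since BCL6 and STAT factors bind similar sites. The core TTCNNNGAA was in 7.02% of all promoters, in both Bcl6 entries, in the first Mef2c entry and in Fas. It stands in capitals here, 118 bases before the start in Bcl6 and 93 bases before it in Fas, each with 10 bases on either side.
Bcl6: agcaaattagTTCTCAGAAttccagaggc
Fas: tcaaagcgatTTCTGGGAAgacctgaata
A MEF2 core, CTANNNNTAG, was in 3.20% of promoters and in none of the 10 entries. The octamer ATGCAAAT, the binding motif of OCT factors in B cells, was searched after the Mef2b sequence had been read. It was in 1.60% of promoters and lay 85 bases before the listed start of Mef2b, a start that matched no annotated transcript.
Mef2b: atccgcccctATGCAAATaacctacttc
These are matches of letters, not measured binding.

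Other genes of the germinal center B cell state moved both ways in CD93-negative cells. Of 28 such genes 27 were tested, 9 were called higher and 5 lower on the authors' scale, and 9 and 12 after rescaling. Their median rescaled change was 0.025, beside -0.08 over all tested genes. Of all tested genes, 18.7% were called higher and 2.79% lower on the authors' scale, and 17.1% and 23.8% after rescaling. The lists hold further genes that were under 1 FPKM in controls, so their counts carry the filter's limit given above. The mitotic kinase gene Nek2 (1.58), the AP-1 type factor gene Batf (1.44) and Ezh2 (1.29), which encodes the histone H3 methyltransferase of germinal center cells, were among those that rose. Among those called lower, chosen here after their values were seen, were Rgs13 (-0.68), a brake on chemokine signalling, the follicle-homing receptor gene Cxcr5 (-0.56) and Lmo2 (-0.55).

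In CD93-positive cells none of the same 27 was called by limma on the authors' scale, with 2 at an unadjusted p under 0.05. After rescaling, 2 were called higher, Batf (1.26) and the activation marker gene Cd83 (0.60), and 9 lower, led by Bach2 (-0.82), which encodes a repressor that delays plasma cell differentiation. Their median rescaled change was -0.26, beside -0.01 over all tested genes, of which 11.4% were called higher and 9.34% lower. Without DKO 3, 2 of the 27 were called higher and 1 lower on the authors' scale. The 12 genes of BCL6 corepressors gave no call by limma on the authors' scale in either population, out of 10 tested in CD93-negative cells (2 at an unadjusted p under 0.05) and 11 in CD93-positive cells (0 at that level). After rescaling, 5 and 1 of them were called lower, beside 23.8% and 9.34% of all tested genes. Their median rescaled changes were -0.085 and -0.15, beside -0.083 and -0.01 over all tested genes.

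Genes that BCL6 is known to repress were called higher in part, beside a Bcl6 transcript that was not. Of 15 tested in CD93-negative cells 8 were called higher on either scale, against 1 lower on the authors' scale and 6 after rescaling, with a median rescaled change of 0.30. Among all tested genes there, 18.7% were called higher and 2.79% lower on the authors' scale, and 17.1% and 23.8% after rescaling. Prdm1, which drives plasma cell differentiation, went from 0.481, 0.542 and 0.874 FPKM to 3.37, 3.08 and 3.11 (change 1.37, adjusted p = 6.33e-05). The chemokine gene Ccl3 (adjusted p = 0.0105) and the checkpoint kinase gene Chek1 (change 0.98, adjusted p = 0.00110) rose as well. Gpr183, the receptor that draws B cells to the outer follicle, was the gene called lower (-0.37, adjusted p = 0.0433).

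In CD93-positive cells 2 of 15 were called higher, Ccl3 (2.33) and Prdm1, and after rescaling 5 higher and 2 lower, with a median rescaled change of 0.23. Among all tested genes there, 1.67% were called higher on the authors' scale, and 11.4% higher and 9.34% lower after rescaling. Without DKO 3, 5 of the 15 were called higher and 0 lower on the authors' scale. Prdm1 was at 0.779, 0.741 and 0.796 FPKM in CTL and 5.65, 3.98 and 2.54 in DKO (change 1.47, adjusted p = 3.95e-06). Its groups did not overlap, as for 2.94% of tested genes with DKO higher. Both of these genes were under 1 FPKM in every CTL library.

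Of 17 genes of antibody diversification, all tested, 4 were called higher in CD93-negative cells and 0 lower, and 3 and 1 after rescaling, with a median rescaled change of 0.11. The shares called higher lie near the 18.7% and 17.1% of all tested genes. Among them were Ung (0.90), which removes uracil from DNA, the exonuclease gene Exo1 (0.85) and Apex1 (0.59). In CD93-positive cells limma called 0 of 17 on either scale, with 0 at an unadjusted p under 0.05 on the authors' scale and 5 after rescaling. Their median rescaled change there was 0.020.

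**Figure D4:**
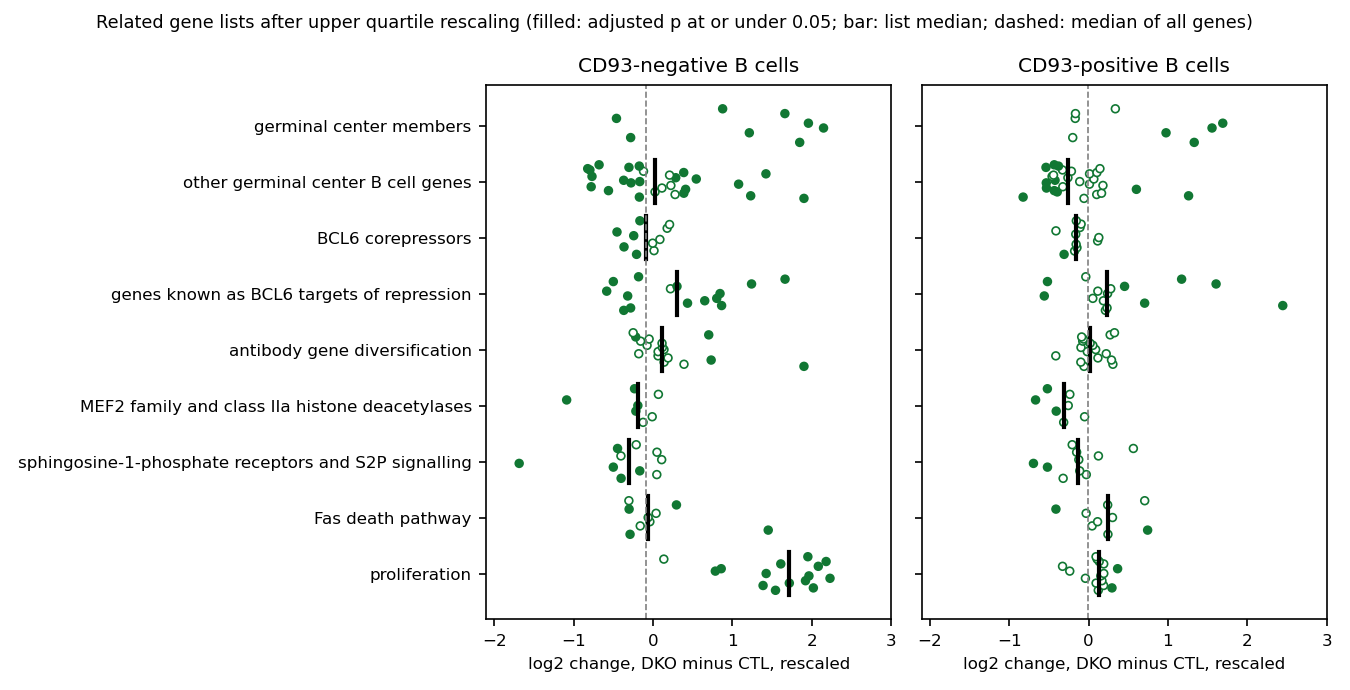
Change after upper quartile rescaling (x axes, log2(FPKM + 1), DKO minus CTL) of each tested gene in the gene lists (rows), filled where the adjusted p is at or under 0.05; black bars mark list medians, not drawn for the 9 germinal center genes, and the dashed line the median of all tested genes. Proliferation genes lie right of the line in CD93-negative cells, with 14 of 15 called higher, and near it in CD93-positive cells, with 2 of 15. The shares of all tested genes called higher were 17.1% and 11.4%.

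Few partners of the 9 genes were called on the authors' scale. Of 7 MEF2 family and class IIa histone deacetylase genes, only Hdac9, whose protein binds and restrains MEF2 factors, was called in CD93-negative cells. It fell from 8.40, 10.7 and 11.0 FPKM to 5.23, 4.42 and 5.07 (change -0.89, adjusted p = 8.39e-04). In CD93-positive cells Hdac9 measured 12.1, 11.5 and 11.6 against 7.66, 6.83 and 3.91, without overlap, as for 19.0% of tested genes with DKO lower. With all libraries it passed after rescaling (-0.67, adjusted p = 0.00522) and not on the authors' scale. Rescaling brought the number of the 7 called lower to 4 in CD93-negative and 3 in CD93-positive cells, with median rescaled changes of -0.19 and -0.31. Over all tested genes, 23.8% and 9.34% were called lower after rescaling.

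Of 10 tested genes of sphingosine-1-phosphate receptors and their signalling, S1pr3 alone was called in CD93-negative cells on the authors' scale. Its direction was opposite to that of S1pr2. S1pr3, a receptor of marginal zone B cells, went from 5.97, 6.56 and 6.61 to 1.30, 1.66 and 1.78 FPKM (change -1.52, adjusted p = 1.33e-05), and in CD93-positive cells by -0.85 (adjusted p = 0.0544; rescaled -0.69, adjusted p = 0.0107). After rescaling, 5 of the 10 were called lower in CD93-negative and 2 in CD93-positive cells, and 0 higher. The shares of all tested genes called lower were then 23.8% and 9.34%. Of 9 tested genes of the Fas death pathway, 2 were called higher in CD93-negative cells on the authors' scale. Over all genes tested there, 18.7% were called higher. Ripk1 (0.50), which encodes a kinase of death receptor signalling, was among the 2. After rescaling, 2 of the 9 were called higher and 2 lower, with a median change of -0.06, beside -0.08 over all tested genes. In CD93-positive cells limma called 0 of the 9 on the authors' scale (0 at an unadjusted p under 0.05), and 1 higher and 1 lower after rescaling.

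Several sets of markers also differed between CTL and DKO libraries, in both directions. In CD93-negative cells 14 of 15 proliferation genes were called higher on either scale, with a median rescaled change of 1.72. Among all tested genes there, 18.7% were called higher and 2.79% lower on the authors' scale, and 17.1% and 23.8% after rescaling. Mki67, a marker of cycling cells, went from 4.42, 7.30 and 7.07 to 34.6, 31.7 and 34.9 FPKM (change 2.28, adjusted p = 1.77e-06). In CD93-positive cells it was already high, at 85.5, 92.8 and 70.1 in CTL against 75.8, 60.7 and 36.2 in DKO. There limma called 0 of the 15 genes on the authors' scale (0 at an unadjusted p under 0.05). After rescaling 2 of the 15 were called higher, beside 11.4% of all tested genes, with a median rescaled change of 0.13. The summed FPKM of 6 plasma cell markers was 68.4 to 96.0 in CTL and 321 to 359 in DKO CD93-negative cells, and 146 to 200 against 844 to 1451 in CD93-positive cells. Markers of B-1 cells, an innate-like B cell type, summed to 24.4 to 29.2 FPKM in CTL and 77.0 to 90.1 in DKO CD93-negative cells (3 of 4 tested called higher), and to 43.6 to 51.8 against 43.0 to 101.7 in CD93-positive cells. Marginal zone B cell markers summed to 160 to 199 in CTL and 95.1 to 98.4 in DKO CD93-negative cells (4 of 6 called lower and 1 higher), and to 62.5 to 87.9 against 32.2 to 66.9 in CD93-positive cells. The part of any of these in the results for the 9 genes was not tested.

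RNA of other cell types was present as well. Follicular helper T cells also make BCL6, and the summed FPKM of their 7 markers was 7.17 to 11.0 in CTL and 13.8 to 14.2 in DKO CD93-negative cells, and 14.8 to 23.9 against 16.5 to 49.6 in CD93-positive cells. T cell markers summed to 25.4 to 41.9 in CTL and 44.1 to 47.4 in DKO CD93-negative cells (3 of 6 called higher, beside 18.7% of all tested genes). In CD93-positive cells they summed to 65.7 to 81.3 against 41.2 to 136. There 0 of 6 T cell and 2 of 5 tested follicular helper markers were called higher on the authors' scale. Without DKO 3 it was 4 of 6 and 4 of 5, beside 539 of all 11250 tested genes. No marker of the follicular helper list was at 0 in every library. The one that moved most, Pdcd1, which encodes the inhibitory receptor PD-1, measured 0, 0 and 0.300 FPKM in CTL and 3.51, 3.23 and 4.20 in DKO CD93-negative cells. Of the 4 markers of that list tested in these cells, 1 was called higher on either scale. After rescaling 2 of the 4 changes were positive and 2 negative. The 7 pan-B cell markers summed to 2762 to 3414 in CTL and 3000 to 3153 in DKO CD93-negative cells, and to 3109 to 4069 against 1446 to 3023 in CD93-positive cells. CD93-positive libraries also held RNA of 4 neutrophil markers, at 1111 to 1562 FPKM in CTL and 315 to 1042 in DKO, and of 5 red cell markers, at 8510 to 40143 against 2168 to 9039. In CD93-negative cells the red cell markers summed to 1.19 to 44.2 in CTL and 68.1 to 152 in DKO (3 of 4 tested called higher). The part of these cell types in the results was not tested.

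The genes with the most similar pattern were sought among 6832 genes that averaged 5 FPKM or more in both tables, by Pearson's r over the 6 rescaled libraries of each table. Since r over 6 libraries in 2 groups mainly follows the group difference, it is a description without a test. For Mef2b these were Itgb1 (r = 0.998 in CD93-negative and 0.993 in CD93-positive cells) and Ell2 (0.995 in both). Basp1 was followed most closely by Manf (0.999 and 0.992) and Ssr2 (0.995 and 0.990), Gm600 by Rexo2 (0.995 in both) and Oxct1, and Fas by Stoml1 (0.995 and 0.983) and Rbmxl1. The nearest genes to the others were Trim7 and Polr3b for Mef2c, Snrpf and Cdc25a for S1pr2, Bahd1 and Ino80b for Bcl6, and Trp53bp2 and Snora30 for Mybl1.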

How the data were processed

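Total RNA of sorted splenic B cells was made into libraries with a strand-specific kit, per the labels' protocols. The submitters' processing notes name the mm9 build, Cufflinks 2.1.1, TopHat2 2.0.8 and Bowtie2 2.1.0, without settings. The authors deposited FPKM in a table per population, read counts are not used here, and 6 columns that repeat the CD93-positive values cell for cell were left out. Genes that reached 1 FPKM in 3 or more of 6 libraries were tested with limma 3.58.1 (R 4.3.3) on log2(FPKM + 1) with a mean-variance trend, within each table, two-sided and with Benjamini-Hochberg adjustment over all genes tested, called at 0.05. The fit was tested on simulated data. Each library's factor for rescaling set its 0.75 quantile over the tested genes to a common value. Alternatives tried were a pseudocount of 0.1 or 5, no filter or a 5 FPKM filter, upper quartile and quantile scaling, no trend, sample weights, the replicate number as a block, sex, and each library left out. The octamer, the lists' counts under other settings and the combination of rescaling with sex were added after seeing the data. The 9 genes and all gene lists were chosen with earlier results of these data known. Named beside the 9 genes are the label checks, at most 4 called genes of a list with the largest changes, genes the background needs, and the 2 genes most like each of them. Some genes of these lists are not reported here. RefSeq gave 250 bases before each start and the names Gcsam and Nuggc for Gcet2 and Gm600. Overlapping genes and the readthrough into Mef2b could not be separated, as the use of strand in quantification is not given in the sources used here.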

Additional observations from a re-analysis of the deposited data

Results flagged for a closer look

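Among 124 genes of the lists, the 3 CTL and 3 DKO libraries of 4 were apart in opposite directions in the 2 populations on the authors' scale, which none of the 9 germinal center genes showed. DKO was higher in CD93-negative and lower in CD93-positive cells for Cd22 (changes of 0.25 and -0.64), an inhibitory coreceptor of B cells, for Cxcr4 (0.33 and -0.78), the dark zone chemokine receptor, for Lig4 (0.22 and -0.64), a DNA end-joining ligase, and for Myb (0.39 and -0.58), the relative of Mybl1. The differences between the populations were not tested. On this scale DKO lay wholly above CTL for 31.5% of all tested genes in CD93-negative cells and wholly below for 19.0% in CD93-positive cells. After upper quartile rescaling the CD93-negative libraries overlapped for all 4.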

How the results depend on the processing

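In CD93-negative cells Mef2b, S1pr2, Fas, Gm600, Mybl1 and Basp1 kept their direction and call under every alternative run (15 or 16 each). S1pr2 and Mybl1 had no value under the 5 FPKM filter. The call count of 2351 genes (2045 higher, 306 lower) became 4478 (1869 and 2609) after upper quartile and 4198 after quantile scaling, and 1430 to 3253 with a library left out (1430 without DKO 3). Bcl6 changed by -0.14 to 0.013 with a library left out (0.013 without CTL 2). In CD93-positive cells the 361 calls (188 higher, 173 lower) became 16 with no filter, 168 with the 5 FPKM filter, 2331 after upper quartile and 2230 after quantile scaling, 188 with no trend, 783 with sample weights, 127 with sex, 570 with rescaling and sex, 1633 with rescaling and without DKO 3, and 163 to 675 with a library left out (163 without CTL 1, 189 without CTL 2, 675 without DKO 3). Mybl1 changed by 0.11 with sample weights and S1pr2 by -0.016 to 0.35 with a library left out (-0.016 without DKO 1). Except where a filter or a left-out library alters the genes or samples tested, the cause was not tested. Same-numbered CTL and DKO libraries did not deviate together (r from -0.11 to 0.02 in CD93-negative, from -0.14 to 0.17 in CD93-positive cells). Differently numbered CD93-positive libraries gave r from -0.31 to 0.34. With 3 libraries a group this cannot settle whether the numbers pair them, and the labels do not say. With a replicate block 2874 and 237 genes were called, and Basp1 of CD93-positive cells was not. Without read counts, the precision of genes under 1 FPKM is unknown.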
